A study of Mus musculus with 12 samples.

Results

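The diet by LPS interaction was the difference between the response of mouse kidney cortex to lipopolysaccharide (LPS) in ethanol-fed mice and the response in pair-fed mice. It was computed gene by gene as the LPS-minus-saline difference with ethanol minus the LPS-minus-saline difference without it, on a log2(FPKM + 1) scale (FPKM counts fragments by transcript length and by the size of the library). A value of 0 means an equal log2 response in both diets, and a value of 1 means that the response was 1 log2 unit more positive with ethanol. The genes described are the protein-coding genes of GENCODE M21 that reached 5 FPKM in at least 3 of the 12 libraries. They numbered 8183 of the 21695 protein-coding genes and 47719 genes in the table. All mice were males of strain C57BL6/J, given as 8 weeks old, and ate a liquid diet for 6 weeks. PF mice were pair-fed an isocaloric diet with maltose-dextrin and received saline, and PF_LPS mice had that diet and 10 mg/kg LPS by intraperitoneal injection. EtOH mice ate the Lieber-DeCarli ethanol diet, whose ethanol content ended at 6%, and received saline, and EtOH_LPS mice had that diet and the same LPS injection. All injections were given 4 hours before the tissue was taken, and each group had 3 libraries of rRNA-depleted total RNA. The source label reads whole kidney and the tissue region reads cortex. The labels do not say in words that each library came from its own mouse, so the tests measure the spread between these libraries.

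LPS, an outer membrane component of Gram-negative bacteria, is recognised by TLR4. The receptor signals through NF-kB and MAP kinases, which switch on cytokines, chemokines, adhesion molecules and immediate early genes, and through IRF3, which switches on interferon and the genes it controls. In the kidney, endothelial cells, resident macrophages and tubule cells all respond to LPS or to the cytokines that follow it, while tubule transporters and other genes of tubule function are often lowered. Ethanol is oxidised to acetaldehyde and acetate, which produces reactive oxygen species. Oxidant stress activates the factor NRF2, which drives genes such as those of glutathione synthesis.

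Some libraries stood apart from their own group by the GC content of their transcripts. The slope of a library's deviation from its group mean was -0.464 log2 units per 10% of transcript GC in PF_LPS replicate 2 and -0.346 in EtOH_LPS replicate 1, and it lay between -0.251 and 0.267 in the other 10 libraries. Values without these libraries are given below beside some of the results. The 5 proximal tubule markers summed to 54700 to 81200 FPKM in PF, 63800 to 107000 in PF_LPS, 42500 to 48000 in EtOH and 41000 to 67900 in EtOH_LPS, so the saline groups did not overlap. Nearly all of that sum was the androgen-dependent gene Kap, and the other 4 markers each read at least 42.7 FPKM in every library. The markers of T cells, B cells, adrenal cortex and skeletal muscle were each under 1 FPKM in all 12. The 4 neutrophil markers summed to 2.99 to 5.31 FPKM in the saline libraries, 179 to 416 in PF_LPS and 165 to 253 in EtOH_LPS. Nearly all of that sum was S100a8 and S100a9. Retnlg read 2.81 to 9.32 FPKM in the LPS libraries, and Ly6g stayed under 1 FPKM in all 12. The 4 endothelial markers summed to 73.5 to 96.8 FPKM with saline and 30.3 to 46.9 with LPS. They did not move together: Pecam1, Emcn and Kdr were lower with LPS, and Cdh5 was higher. The mean of Cdh5 was 5.58 FPKM in PF, 13.2 in PF_LPS, 5.94 in EtOH and 16.0 in EtOH_LPS. In tissue RNA, fewer cells of a type and less RNA per cell cannot be told apart. The summed levels of these lists overlapped between PF_LPS and EtOH_LPS for neutrophils (Ly6g, S100a8, S100a9, Retnlg) and, at 30.3 to 36.3 against 35.6 to 46.9, for endothelium. The sums did not overlap for the distal convoluted tubule (Slc12a3, Pvalb), at 22.2 to 63.5 FPKM in PF_LPS and 66.0 to 106 in EtOH_LPS. Nor did they for principal cells (Aqp2, Scnn1g), at 7.55 to 12.2 and 13.1 to 20.6. Gene by gene, Slc12a3 and Scnn1g did not overlap either. Pvalb overlapped, at 5.78 to 22.9 FPKM in PF_LPS and 7.16 to 16.3 in EtOH_LPS. Aqp2 overlapped too, at 0.926 to 5.15 and 3.66 to 7.93. The part of cell content in the results below was not tested.

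No member gene passed the test for a different LPS response in the 2 diets. With limma and Benjamini-Hochberg adjustment over the 14109 genes fitted, 0 of 8183 members (0.00%) were called at an adjusted p of 0.05, and the lowest adjusted p was 0.841. At an unadjusted p under 0.05, 327 members (4.00%) were found, 179 with a more positive response with ethanol (2.19%) and 148 with a more negative one (1.81%). The LPS responses themselves were large in both diets. In pair-fed mice 1131 members rose (13.8%) and 420 fell (5.13%), and in ethanol-fed mice 1066 rose (13.0%) and 351 fell (4.29%). A total of 1098 of the 8183 members were called in both diets, and each of the 1098 moved in the same direction in both diets. The median difference in response over all members was 0.025 log2 units. Its standard error had a median of 0.322 log2 units, and the size of difference at an unadjusted p of 0.05 was 0.704 for the median member. Scaling the libraries to equal total FPKM, in place of the deposited scaling, moved the split of the LPS calls to 572 higher and 1324 lower in pair-fed mice and to 658 higher and 788 lower in ethanol-fed mice, and left 0 members called for the difference. The 4 genes of the whole fit that did pass (0.0284%) were no members: a small nuclear RNA gene (Gm23731), a small nucleolar RNA gene (Gm24337), an rRNA gene (Gm22586) and the miRNA gene Mir1966.

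**Figure D1:**
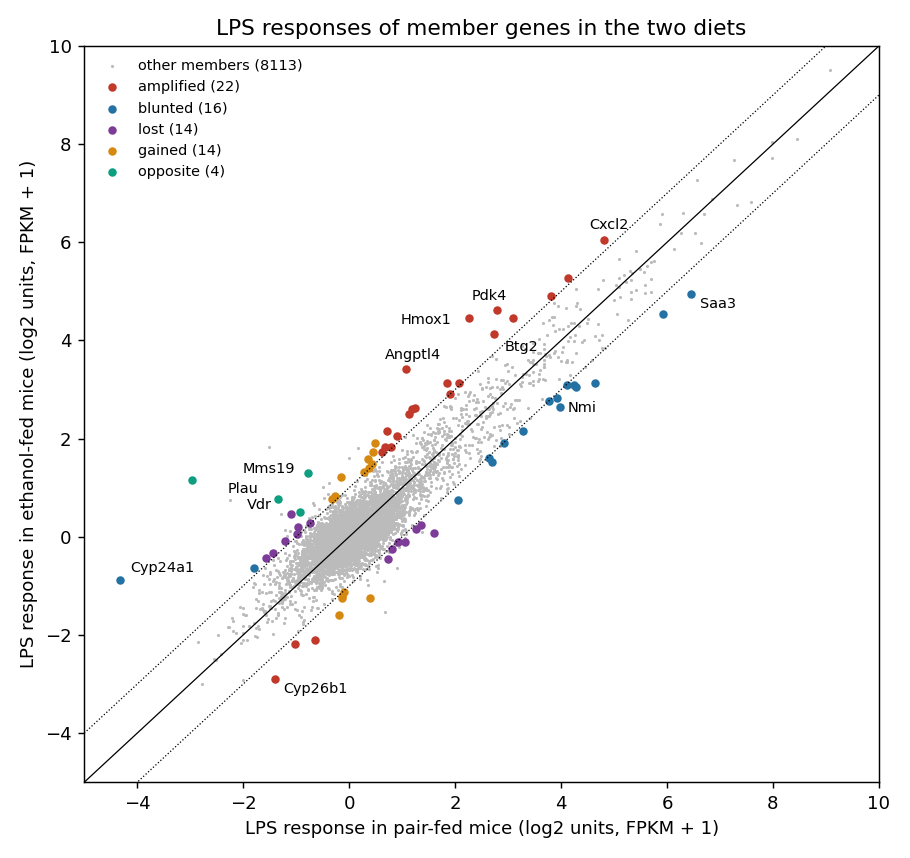
LPS response of each member gene in pair-fed mice (x axis) and in ethanol-fed mice (y axis), both in log2 units of FPKM + 1; the solid line marks equal responses, the dotted lines a difference of 1 log2 unit, and colours the 70 members sorted into response classes. Most points lie between the dotted lines, Hmox1, Angptl4 and Pdk4 lie above them, and Saa3 and Nmi lie below.

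The size of the difference was therefore used to describe the members, with no test attached. An absolute difference of at least 1 log2 unit was seen in 119 members (1.45%), 67 positive (0.819%) and 52 negative (0.635%). Of these, 70 members (0.855%) also had an LPS response past an adjusted p of 0.05 in the diet with the larger response, and they were sorted into 5 classes. In 22 members (0.269%) the response had the same sign and was larger with ethanol (amplified, 19 rising and 3 falling with LPS). In 16 (0.196%) it was smaller with ethanol (blunted, 14 rising and 2 falling). In 14 (0.171%) it was under 0.5 log2 units with ethanol (lost, 7 rising and 7 falling in pair-fed mice), in 14 (0.171%) it was under 0.5 in pair-fed mice (gained), and in 4 (0.0489%) the responses had opposite signs and were both at least 0.5 (opposite). The LPS response was called in both diets in 29 of the 70. In 41 it was not called in the diet with the smaller response, so the class names rest on estimated sizes. Those 41 included the amplified members Maf, Gclc, Angptl4, Depp1, Il34 and Pdk4 and the blunted members Cyp24a1, Etv5 and Bcat1. The adjusted p of the difference lay between 0.841 and 0.988 in all 70. Just inside the limit of 1 stood Aida at -1.001 and Snx10 at -1.011, and just outside stood Ch25h at 0.997 and Hp at -0.994. In 57 of the 70 the 3 LPS libraries of 1 diet, each measured from its own saline mean, all lay above the 3 of the other diet. That separation was present in 1057 of all members (12.9%), and nothing is read from it here because the classes were chosen by the same difference.

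Each difference in response can be split into the diet difference among LPS libraries minus the diet difference among saline libraries. The LPS levels gave the larger share in 56 of the 70 classed members, and the saline levels in 14. All 16 blunted members belonged to the first kind. Among the 22 amplified members 9 belonged to the second kind, in which the estimated diet difference was larger with saline than with LPS. These 9 were Cyp26b1, Zfp503, Nrg1, Gclc, Angptl4, Depp1, Il34, Eif4ebp3 and Pdk4. The second kind also held the gained members Gpcpd1, Lama1 and Rpl22l1, the lost member Zmym3 and the opposite member Mms19. Only Rnd3 and Cxcl2 of the 70 passed the test between EtOH_LPS and PF_LPS, with differences of 1.28 ± 0.204 log2 units (limma adjusted p = 0.0495) and 1.35 ± 0.21 (adjusted p = 0.0488). None of the 70 passed the test between EtOH and PF. The 70 were chosen by a difference that contains both of these contrasts, and the shares over all members are not given here. Nothing is read from these counts about the classes.

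The amplified members that rose with LPS included a chemokine, an adhesion molecule and the immediate early genes Fos and Btg2. Cxcl2, a chemokine that attracts neutrophils, read 0.087, 0.132 and 0.0562 FPKM in PF libraries 1 to 3, 35.8, 21.5 and 33.5 in PF_LPS, 0.187, 0.121 and 0.215 in EtOH and 65.3, 98.2 and 70.8 in EtOH_LPS. Both saline groups were near 0, and every EtOH_LPS library lay above every PF_LPS library. Cxcl2 rose by 4.81 ± 0.21 log2 units with LPS in pair-fed mice and by 6.05 ± 0.21 in ethanol-fed mice, a difference of 1.25 ± 0.30 (limma, unadjusted p = 0.00134, adjusted p = 0.847). The difference was 1.02 without PF_LPS replicate 2, the library whose absence lowered it most. Icam1, the endothelial and epithelial ligand on which leukocytes adhere, read 103, 57.4 and 85.7 FPKM in PF_LPS and 129, 176 and 167 in EtOH_LPS, from 2.26, 4.05 and 4.9 in PF and 3.14, 3.47 and 2.62 in EtOH. Its LPS groups did not overlap, and the difference in response was 1.14 ± 0.37 log2 units. Il6, the cytokine that drives the acute-phase response, fell short of the limit of 1, with a difference of 0.68 ± 0.27 and EtOH_LPS values of 122, 107 and 87.6 FPKM against 50, 80 and 58.8 in PF_LPS. Cxcl10, an interferon-induced chemokine, had a difference of 0.44 ± 0.36, which was 0.199 without PF replicate 3.

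Fos, a subunit of the AP-1 factor, read 7.95, 4.6 and 5.86 FPKM in PF_LPS and 21.5, 13.7 and 13.5 in EtOH_LPS, from 2.03, 3.12 and 1.31 in PF and 1.18, 2.65 and 1.63 in EtOH, a difference in response of 1.42 ± 0.40 log2 units. Btg2, an anti-proliferative early response gene, read 41.7, 23.4 and 26.9 FPKM in PF_LPS and 59.1, 114 and 113 in EtOH_LPS, from 2.89, 4.88 and 3.35 in PF and 4.46, 4.34 and 4.12 in EtOH. For both genes even the lowest EtOH_LPS library lay above all 3 PF_LPS libraries, and the difference for Btg2 was 1.40 ± 0.40. Rnd3, an atypical small GTPase that loosens actin stress fibres, read 26.4, 23.1 and 23.7 FPKM in PF_LPS and 45.9, 86.3 and 55.5 in EtOH_LPS, from 6.78, 5.64 and 5.89 in PF and 6.1, 6.03 and 5.87 in EtOH. The saline libraries of both diets and the PF_LPS libraries were each within a narrow range, while EtOH_LPS replicate 2 stood well above its group. The difference for Rnd3 was 1.30 ± 0.29 log2 units (limma, unadjusted p = 0.000805, adjusted p = 0.841) and 1.04 without EtOH_LPS replicate 2. Hmox1, Gclc, Angptl4 and Pdk4 were amplified too and are described with the lists they belong to. The remaining 10 amplified members that rose with LPS were Nrg1, Arhgef3, Slc45a3, Hbegf, Maff, Depp1, Il34, Ctps, Irf8 and Eif4ebp3, with differences between 1.02 and 1.44.

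Most members of the lists of these programmes had a positive difference in response. All 12 NF-kB pathway and feedback members rose with LPS in both diets, and all 12 had a positive difference in response, with a median of 0.478 log2 units against 0.025 over all members, of which 53.2% were positive. Birc3, an inhibitor of apoptosis, had the lowest unadjusted p of the list with a difference of 0.65 ± 0.23, and Rela, the transactivating NF-kB subunit, had 0.69 ± 0.49, with 0.387 without EtOH_LPS replicate 3 and 1.13 without EtOH_LPS replicate 1. Of 12 immediate early members, 10 rose in pair-fed mice and 12 in ethanol-fed mice, and 10 differences were positive with a median of 0.508. Of 15 cytokines and chemokines, 14 rose in each diet, and 11 differences were positive with a median of 0.443. Cx3cl1, the membrane-bound chemokine fractalkine, had 0.82 ± 0.57, and 0.442 without PF_LPS replicate 2. Of 11 members for endothelial adhesion and activation, LPS raised 8 and lowered 2 without ethanol and raised 7 and lowered 1 with it, and 9 differences were positive with a median of 0.559. None of these members passed the test of the difference itself. Leaving out single libraries left each of the 4 medians positive, at 0.327 to 0.619, 0.362 to 0.749, 0.334 to 0.558 and 0.451 to 0.679 in the order given. The NF-kB and immediate early members are rich in GC, with medians of 54.2% and 53.2% against 48.1% over all members, and with the GC trend of every library removed their medians were 0.376 and 0.372.

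Promoter windows are shown for 3 classed members because each holds one of the motifs searched. The windows run from 250 bases before to 50 bases after the transcription start and come from RefSeq (GRCm38.p6), 5′ to 3′ on the strand of the gene, with the motif in capitals. Such a window was at hand for 5786 members and for 40 of the 70 classed members. Cxcl2 lies at chr5:90903649-90903948 on the plus strand with an NF-kB motif, Btg2 at chr1:134079106-134079405 on the minus strand with a cyclic AMP response element (CRE), and Ifit1bl1, a blunted member chosen after its values were seen, at chr19:34601919-34602218 on the minus strand with an interferon-stimulated response element (ISRE).
Cxcl2: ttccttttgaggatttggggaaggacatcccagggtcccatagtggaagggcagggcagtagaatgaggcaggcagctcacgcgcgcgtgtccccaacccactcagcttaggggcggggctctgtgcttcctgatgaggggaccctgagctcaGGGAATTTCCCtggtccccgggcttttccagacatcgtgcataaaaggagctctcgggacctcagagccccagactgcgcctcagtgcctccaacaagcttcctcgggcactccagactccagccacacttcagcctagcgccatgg
Btg2: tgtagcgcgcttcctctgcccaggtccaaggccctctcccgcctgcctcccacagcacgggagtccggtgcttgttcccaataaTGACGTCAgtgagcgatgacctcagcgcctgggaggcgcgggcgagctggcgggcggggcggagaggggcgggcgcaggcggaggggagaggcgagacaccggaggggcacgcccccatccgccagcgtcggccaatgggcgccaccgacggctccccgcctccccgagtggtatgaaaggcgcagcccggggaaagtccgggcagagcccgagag
Ifit1bl1: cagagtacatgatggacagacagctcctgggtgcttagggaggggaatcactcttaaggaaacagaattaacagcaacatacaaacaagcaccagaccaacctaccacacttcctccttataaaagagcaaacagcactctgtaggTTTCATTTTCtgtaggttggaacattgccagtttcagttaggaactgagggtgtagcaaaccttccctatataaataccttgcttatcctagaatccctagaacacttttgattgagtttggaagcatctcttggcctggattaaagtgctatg

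The NF-kB match of Cxcl2 begins 97 bases before the start and holds 2 overlapping matches, the CRE of Btg2 (TGACGTCA) begins 166 bases before it, and the ISRE of Ifit1bl1 (GAAA, any 2 bases and GAAA again, here on the opposite strand) begins 104 bases before it. Over all 32851 windows of this length, searched on both strands, an NF-kB motif was present in 8.46%, a CRE in 1.79% and an ISRE in 3.44%, and in the 5786 member windows these shares were 10.1%, 3.46% and 3.35%. Among amplified members that rose with LPS, 2 of 11 windows held an NF-kB motif and 1 held a CRE. Among blunted members that rose, 2 of 10 windows held an ISRE, 0 held an NF-kB motif and 1, that of Tra2a, held a CRE. The other motifs searched were AP-1 (TGANTCA), the core of the antioxidant response element (TGACNNNGC), the CArG box of serum response factor and the DR3 element of the vitamin D receptor, present in 7.81%, 12.4%, 1.63% and 0.256% of all windows. The antioxidant core was in 3 of 11 windows of amplified members that rose, against 15.3% of member windows, and AP-1 in 2 of 10 windows of blunted members that rose, against 4.63%. A match is a run of letters and not a measured binding site.

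The largest difference in the list of NRF2 targets and heme oxygenase was that of Hmox1 (chromosome 8, 75093621 to 75100589, mm10), which encodes the inducible heme oxygenase that breaks heme down to biliverdin, iron and carbon monoxide. It read 5.77, 7.6 and 7.66 FPKM in PF, 52.9, 23.7 and 40.5 in PF_LPS, 6.08, 6.17 and 6.56 in EtOH and 105.5, 125 and 299 in EtOH_LPS. The saline groups lay close together, the LPS groups did not overlap, and EtOH_LPS replicate 3 was the highest library. Hmox1 rose by 2.26 ± 0.36 log2 units in pair-fed mice and by 4.45 ± 0.36 in ethanol-fed mice, a difference of 2.19 ± 0.51 (limma, unadjusted p = 0.00117, adjusted p = 0.847). Without EtOH_LPS replicate 3 the difference was 1.74, the lowest value with any 1 library left out. Gclc, the catalytic subunit of the enzyme that limits glutathione synthesis, showed another pattern. It read 89.3, 134 and 93.7 FPKM in PF and 39, 42.3 and 40 in EtOH, and 152, 164 and 164 in PF_LPS and 84.3, 188 and 162 in EtOH_LPS. The saline groups did not overlap and were lower with ethanol, while the LPS groups overlapped. Gclc rose by 1.74 ± 0.27 log2 units in ethanol-fed mice (limma adjusted p = 0.00078), its pair-fed response was 0.62 ± 0.27 (adjusted p = 0.141), and the difference was 1.12 ± 0.38. All 19 members of the NRF2 and heme oxygenase list had a positive difference in response, with a median of 0.362 log2 units, although 2 rose with LPS in pair-fed mice, 4 rose in ethanol-fed mice and 0 passed the test of the difference. Of all members, 13.8% rose in pair-fed mice and 13.0% in ethanol-fed mice. The list median was 0.186 without EtOH_LPS replicate 2, 0.609 without EtOH_LPS replicate 1 and 0.344 with the GC trend removed.

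Genes of fatty acid oxidation had the highest list median with all libraries and the deposited scaling, 0.58 log2 units against 0.559 for endothelial adhesion and activation. They ranked below that list with equal total FPKM (0.716 against 0.795), with the GC trend removed (0.451 against 0.647) and without PF_LPS replicate 2 (0.285 against 0.451). Angptl4, a secreted inhibitor of lipoprotein lipase and a target of PPAR-alpha, read 16.6, 20.5 and 12.8 FPKM in PF, 46.8, 17.8 and 53.6 in PF_LPS, 4.82, 5.76 and 6.07 in EtOH and 23.3, 129.5 and 105 in EtOH_LPS. PF_LPS replicate 2 and EtOH_LPS replicate 1 were each far below the other libraries of their groups, and the LPS groups overlapped. The saline groups did not overlap and were lower with ethanol. The estimated diet difference of Angptl4 was -1.41 ± 0.58 log2 units with saline and 0.92 ± 0.58 with LPS, so the saline levels gave the larger share. With both left out, the difference of Angptl4 was 2.61 ± 0.294 log2 units and passed the test (limma adjusted p = 0.00599), against 2.33 ± 0.82 and an adjusted p of 0.988 with all 12 libraries. Hbegf, an EGF receptor ligand, was the only other member to pass in that setting (1.73 ± 0.247, adjusted p = 0.0441), so 2 of 8183 members were called there. This pair of libraries was chosen after the data were seen. Over the 24 alternative settings the limma adjusted p ran from 0.00599 to 1.0 for Angptl4, with 0.208 as the next lowest, and from 0.0441 to 1.0 for Hbegf, with 0.0985 as the next lowest. Pdk4, a kinase that shuts off pyruvate dehydrogenase and so favours fat oxidation, read 112, 59 and 124 FPKM in PF_LPS and 18.8, 250 and 457 in EtOH_LPS, from 22.2, 14.6 and 6.1 in PF and 4.01, 5.49 and 3.78 in EtOH. Its EtOH_LPS libraries spanned the whole range of the PF_LPS libraries, and the difference of 1.82 ± 1.44 log2 units dropped to 0.923 without EtOH_LPS replicate 3 and was 3.19 without EtOH_LPS replicate 1. The estimated diet difference of Pdk4 was -1.35 ± 1.02 with saline and 0.47 ± 1.02 with LPS. Of 22 members of the list of PPAR-alpha targets and fatty acid oxidation, 0 were called with LPS in pair-fed mice and 5 rose in ethanol-fed mice, and 21 differences were positive. Over all members, 19.0% were called in pair-fed mice and 13.0% rose in ethanol-fed mice. The list median was 0.778 without EtOH_LPS replicate 1. None of its members passed the test of the difference with all libraries.

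The amplified members that fell with LPS were Cyp26b1, Zfp503 and Maf. Cyp26b1, which degrades retinoic acid, read 0.872, 3.5 and 1.48 FPKM in PF and 9.13, 5.77 and 6.47 in EtOH, and at most 0.101 in all 6 LPS libraries. The LPS levels were near 0 in both diets and the saline levels did not overlap, so the difference of -1.49 ± 0.38 log2 units came from the saline levels. Zfp503, a zinc finger repressor, read 3.64, 1.68 and 1.92 FPKM in EtOH_LPS and 3.29, 5.59 and 2.23 in PF_LPS, from 11, 15.5 and 16 in EtOH and 7.52, 9.04 and 7.83 in PF, a difference of -1.16 ± 0.39. Maf, a bZIP transcription factor, read 17.2, 45.7 and 19.7 FPKM in PF_LPS, where replicate 2 was within the range of the PF libraries, and 23.3, 10.8 and 7.4 in EtOH_LPS. Its difference was -1.45 ± 0.56 and -1.03 without PF_LPS replicate 2.

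Of the 14 blunted members that rose with LPS, Trim30c, Nmi, Tra2a and Aida had the lowest unadjusted p apart from the predicted gene Gm12185. Nmi, an interferon-induced partner of STAT proteins, read 23.3, 21.4 and 20.4 FPKM in PF, 239, 414 and 401 in PF_LPS, 26, 27.7 and 25.7 in EtOH and 166.5, 199 and 223 in EtOH_LPS. It rose in both diets, and all EtOH_LPS libraries lay below all PF_LPS libraries. The rise was 3.92 ± 0.21 log2 units in pair-fed mice and 2.84 ± 0.21 in ethanol-fed mice, a difference of -1.08 ± 0.30 (limma, unadjusted p = 0.00407, adjusted p = 0.86). Trim30c, a member of the Trim30 family of RING proteins that lie close together on chromosome 7, read 13.8, 24.9 and 19 FPKM in PF_LPS and 5.79, 7.73 and 10.6 in EtOH_LPS and at most 0.0634 in the saline libraries. Its groups did not overlap, the difference was -1.15 ± 0.32, and reads shared with near copies of the family may be split between them. Tra2a, a splicing regulator, read 72, 99.8 and 84 FPKM in PF_LPS and 58.4, 38 and 39.2 in EtOH_LPS, and Aida, an axin-binding protein, read 59.1, 90.6 and 78.8 and 38.5, 49.2 and 37.6. Neither pair of groups overlapped, and the differences were -1.02 ± 0.31 and -1.001 ± 0.32. For Nmi, Trim30c and Tra2a the value nearest to 0 came without PF_LPS replicate 2, at -0.942, -0.957 and -0.905. The other blunted members that rose were Gm12185, Gm4841, Snx10, Ms4a6d, Ifit1bl1, Ms4a4c, Chil3, Fgb, Bcat1 and Saa3, with differences from -1.011 to -1.505, the latter in Ms4a4c.

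The wider type I interferon list did not show a blunting of that size. All 21 members rose with LPS in both diets, 18 differences were negative and 3 positive, and the median difference was -0.173 log2 units, beside median responses of 4.51 without ethanol and 4.44 with it. It was -0.0713 without EtOH_LPS replicate 1 and -0.292 without EtOH_LPS replicate 3. Cmpk2, an interferon-induced mitochondrial kinase, had -0.61 ± 0.23. Scaling the libraries to equal total FPKM moved the median difference of all members from 0.025 to 0.17 and that of this list to 0.0215, so the sign of the list median depends on the scaling. Relative to all members, the list stayed on the negative side in both. All 16 members of the interferon-gamma list also rose in both diets, with a median difference of -0.119 that became 0.0792 with equal totals and 0.214 without EtOH_LPS replicate 1. Its members with the largest differences had opposite signs: Irf1, a transcription factor of the interferon response, had 0.76 ± 0.61 (0.408 without EtOH_LPS replicate 2), and Gbp7, a guanylate-binding protein, had -0.71 ± 0.26. The blunted members that rose had a median transcript GC of 44.0%, against 51.5% in the amplified members that rose and 48.1% over all members. The part of GC content in these classes was not tested.

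Acute-phase genes had the lowest list median with all libraries and the deposited scaling, and 1 library turned its sign. With the GC trend removed their median was -0.196, and glucocorticoid-responsive genes were lower at -0.342. Saa3, an inflammation-induced serum amyloid A, read 75.8, 47.4 and 223.5 FPKM in PF_LPS and 7.02, 43.1 and 93.6 in EtOH_LPS, and Fgb, the fibrinogen beta chain, read 101, 63.4 and 74.7 and 9.71, 66.2 and 50.6. For both genes EtOH_LPS replicate 1 was the lowest of the 6 LPS libraries by a wide margin. The differences of -1.50 ± 1.15 and -1.40 ± 0.75 log2 units shrank to -0.493 and -0.58 without it. All 11 acute-phase members rose with LPS in both diets, and the median difference of -0.346 (7 negative, 4 positive) turned to 0.215 without EtOH_LPS replicate 1. Havcr1, the tubule injury marker KIM-1, read 3.46, 23.3 and 29.1 FPKM in EtOH_LPS and 61.9, 28.6 and 34.6 in PF_LPS, and its difference of -0.87 ± 0.84 became -0.0035 without the same library. Lcn2, an iron-binding injury marker, had a difference of 0.04 ± 0.65, with EtOH_LPS values of 68.8, 201 and 247 FPKM. Spp1, the matrix protein osteopontin, had -0.12 ± 0.33, and both signs turned in some settings given in the closing section.

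**Figure D2:**
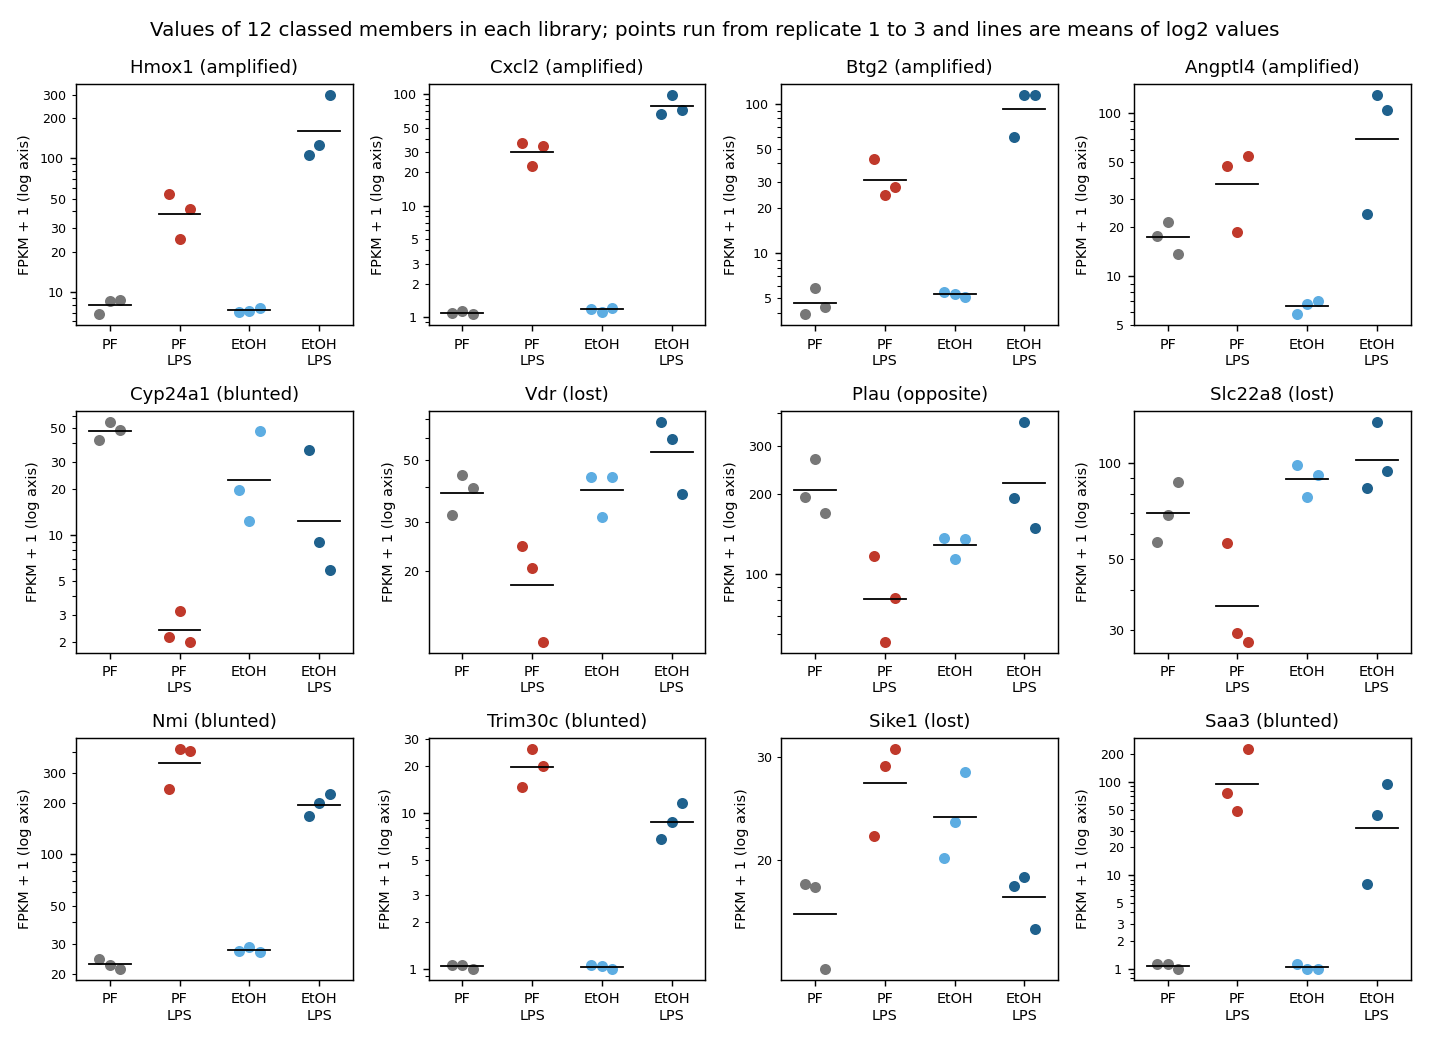
FPKM + 1 (log axis) of 12 classed members in each of the 12 libraries, by group; points run from replicate 1 to replicate 3 within a group and lines are means of the log2 values. For Hmox1, Cxcl2 and Btg2 all 3 EtOH_LPS points lie above the PF_LPS points, while for Saa3 the lowest EtOH_LPS point, 7.02 FPKM, lies far below the other 2.

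Vitamin D genes were among the members whose fall with LPS was smaller or missing with ethanol. Vdr, the vitamin D receptor, read 30.9, 43.3 and 38.7 FPKM in PF, 23.6, 19.6 and 10.2 in PF_LPS, 42.4, 30.4 and 42.4 in EtOH and 67.6, 58.4 and 37 in EtOH_LPS. Every PF_LPS library was below every other library. Vdr fell by 1.10 ± 0.31 log2 units in pair-fed mice (limma adjusted p = 0.0273), the ethanol-fed response was 0.46 ± 0.31 (adjusted p = 0.369), and the difference was 1.57 ± 0.43. Cyp24a1, the enzyme that inactivates vitamin D and a direct target of that receptor, read 41.2, 54.2 and 47.5 FPKM in PF, 1.17, 2.2 and 1.01 in PF_LPS, 18.8, 11.4 and 47.3 in EtOH and 35.4, 8.07 and 4.87 in EtOH_LPS. The PF_LPS libraries were far below all others, and the 2 ethanol groups overlapped widely. Leaving out EtOH_LPS replicate 1, the highest of its group, moved the difference in Cyp24a1 from 3.46 ± 0.90 to 2.69. Etv5, an ETS factor induced by FGF signalling, read 2.97, 2.09 and 1.28 FPKM in PF_LPS and 7.01, 5.75 and 3.07 in EtOH_LPS, a difference of 1.14 ± 0.37. Of 14 members for vitamin D, calcium and phosphate, 13 had a positive difference with a median of 0.262 (0.128 without EtOH_LPS replicate 3 and 0.418 without PF replicate 1), and LPS raised 1 and lowered 3 without ethanol and raised 1 and lowered 1 with it. Over all members LPS raised 13.8% and lowered 5.13% without ethanol and raised 13.0% and lowered 4.29% with it.

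Slc22a8, the basolateral organic anion transporter OAT3 of the proximal tubule, read 55.4, 67.9 and 86.5 FPKM in PF, 55.3, 28.3 and 26.5 in PF_LPS, 97.9, 77.2 and 90.9 in EtOH and 82.8, 134 and 93.3 in EtOH_LPS. PF_LPS replicate 1 lay just below the lowest PF library and the other 2 lay well below it, while no EtOH_LPS library lay below 82.8 FPKM. The difference was 1.16 ± 0.41 log2 units, from a fall of 0.97 ± 0.29 in pair-fed mice (limma adjusted p = 0.0381). Of 31 proximal tubule transporters, LPS raised 2 and lowered 5 without ethanol and raised 2 and lowered 0 with it. Falls made up 5.13% of all members without ethanol and 4.29% with it, and rises 13.8% and 13.0%. At such shares few falls are due in a list of 31, and nothing is read from these counts. In this list 28 differences were positive, the median was 0.367 (0.252 to 0.461 with 1 library left out, 0.3 with the GC trend removed), and 0 passed the test of the difference. Slc13a1, the sodium-sulfate cotransporter, was near 0 at -0.07 ± 0.30.

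The other members with a lost fall were Cirbp, Zmym3, Fhl2, Noa1 and Fpgs. Cirbp, a cold-induced RNA-binding protein, read 3.13, 3.16 and 4.57 FPKM in PF_LPS and 7.21, 11.8 and 10.4 in PF, against 6.82, 6.12 and 5.7 in EtOH_LPS and 9.17, 5.04 and 6.33 in EtOH, a difference of 1.12 ± 0.33. Zmym3, a chromatin-binding zinc finger protein, had 1.10 ± 0.32, and Fhl2, a LIM-domain cofactor, had 1.02 ± 0.30. The lost rises were Cenpj, Sike1, Tspan13, Angpt1, Tmem39a, Chordc1 and Akr1c18. Cenpj, a centriole assembly protein, read 5.38, 7.8 and 5.14 FPKM in PF_LPS and 2.84, 2.1 and 2.6 in EtOH_LPS, from 2.11, 1.57 and 1.53 in PF and 1.87, 1.87 and 2.09 in EtOH. The LPS groups were well apart at these low levels, with a difference of -1.11 ± 0.25 (limma, unadjusted p = 0.000862, adjusted p = 0.841). Sike1, a suppressor of the kinase IKK-epsilon on the interferon branch, read 21, 28 and 30 FPKM in PF_LPS, 17, 17.7 and 14.2 in EtOH_LPS, 17.1, 16.9 and 12 in PF and 19.1, 22.2 and 27.3 in EtOH, a difference of -1.20 ± 0.29. Angpt1, the vessel-stabilising ligand of the receptor Tek, read 9.55, 19.6 and 13.2 FPKM in PF_LPS and 10.6, 5.82 and 7.34 in EtOH_LPS, and its difference was -1.16 ± 0.38. Tek itself had 0.06 ± 0.22, a value whose sign turned in some settings. Tspan13, a tetraspanin, had -1.06 ± 0.31.

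Members whose estimated responses had opposite signs in the 2 diets were Plau, P3h2, Mms19 and the predicted gene Gm10337. None of them had a called LPS response in both diets. Plau (chromosome 14, 20836660 to 20843385) encodes urokinase, the plasminogen activator that tubules release into urine. It read 193, 267 and 169 FPKM in PF, 116.5, 55.2 and 80.4 in PF_LPS, 136, 113 and 135 in EtOH and 192, 369 and 148 in EtOH_LPS. The PF_LPS libraries were the lowest in pair-fed mice and the EtOH_LPS libraries the highest in ethanol-fed mice. Plau fell by 1.35 ± 0.35 log2 units with LPS in pair-fed mice (limma adjusted p = 0.0186), the ethanol-fed response of 0.77 ± 0.35 did not pass (adjusted p = 0.167), and the difference was 2.12 ± 0.49 (unadjusted p = 0.00105). P3h2, a collagen prolyl hydroxylase, read 35.1, 17.1 and 19.6 FPKM in PF_LPS and 51.3, 68.9 and 50.7 in EtOH_LPS, a difference of 1.43 ± 0.36. Its pair-fed response was -0.92 ± 0.26 (limma adjusted p = 0.0286), and the ethanol-fed response of 0.51 ± 0.26 did not pass (adjusted p = 0.222). Mms19, a component of the machinery that inserts iron-sulfur clusters into proteins, read 12.5, 3.92 and 5.81 FPKM in PF_LPS, 15, 10.3 and 9.7 in EtOH_LPS, 13.5, 13.3 and 10.1 in PF and 7.38, 2.68 and 3.18 in EtOH. The EtOH libraries were the lowest of the saline libraries, and the difference of 2.08 ± 0.53 drew more on the saline levels. Mms19 rose by 1.30 ± 0.38 in ethanol-fed mice (limma adjusted p = 0.034), and its pair-fed response of -0.78 ± 0.38 did not pass (adjusted p = 0.182). Gm10337 was listed at 0 in all 3 PF_LPS libraries and in EtOH replicate 1, so no fold is given.

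Gained responses rose in 9 members and fell in 5. Gpcpd1, a glycerophosphocholine phosphodiesterase, had the lowest unadjusted p of all members (limma, 0.000784, adjusted p = 0.841). It read 19.1, 27.3 and 21.8 FPKM in PF, 16.9, 20.8 and 17.9 in PF_LPS, 12.6, 11.4 and 12.6 in EtOH and 25.1, 23.9 and 18.8 in EtOH_LPS. The EtOH libraries were the lowest and the LPS groups overlapped, and the difference was 1.10 ± 0.24. Tsku, a secreted leucine-rich repeat protein, read 4.89, 2.12 and 4.5 FPKM in PF_LPS and 9.11, 13.8 and 12.8 in EtOH_LPS, from 1.14, 3 and 3.2 in PF and 2.24, 3.32 and 1.74 in EtOH. The EtOH_LPS libraries lay above all others, with a difference of 1.42 ± 0.45. Lama1, a laminin chain of the tubule basement membrane, had 1.04 ± 0.32, and Senp3, a SUMO protease of the nucleolus, had 1.09 ± 0.31. The other gained rises were Piezo1, Egr1, Rpl22l1, Map2k3 and Col4a1. Ccdc73 read 4.41, 8.8 and 8.58 FPKM in PF_LPS and 1.68, 1.75 and 2.41 in EtOH_LPS, groups that did not overlap, from 5.79, 4.44 and 4.94 in PF and 4.36, 8.5 and 5.68 in EtOH. It fell by 1.25 ± 0.26 log2 units in ethanol-fed mice, with a difference of -1.66 ± 0.37. The other gained falls were Zfp322a, Bivm, Hist2h2bb and 4930522L14Rik, and transcripts of the 5 members that fell had a median GC of 39.2% against 54.4% in the 9 that rose.

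**Figure D3:**
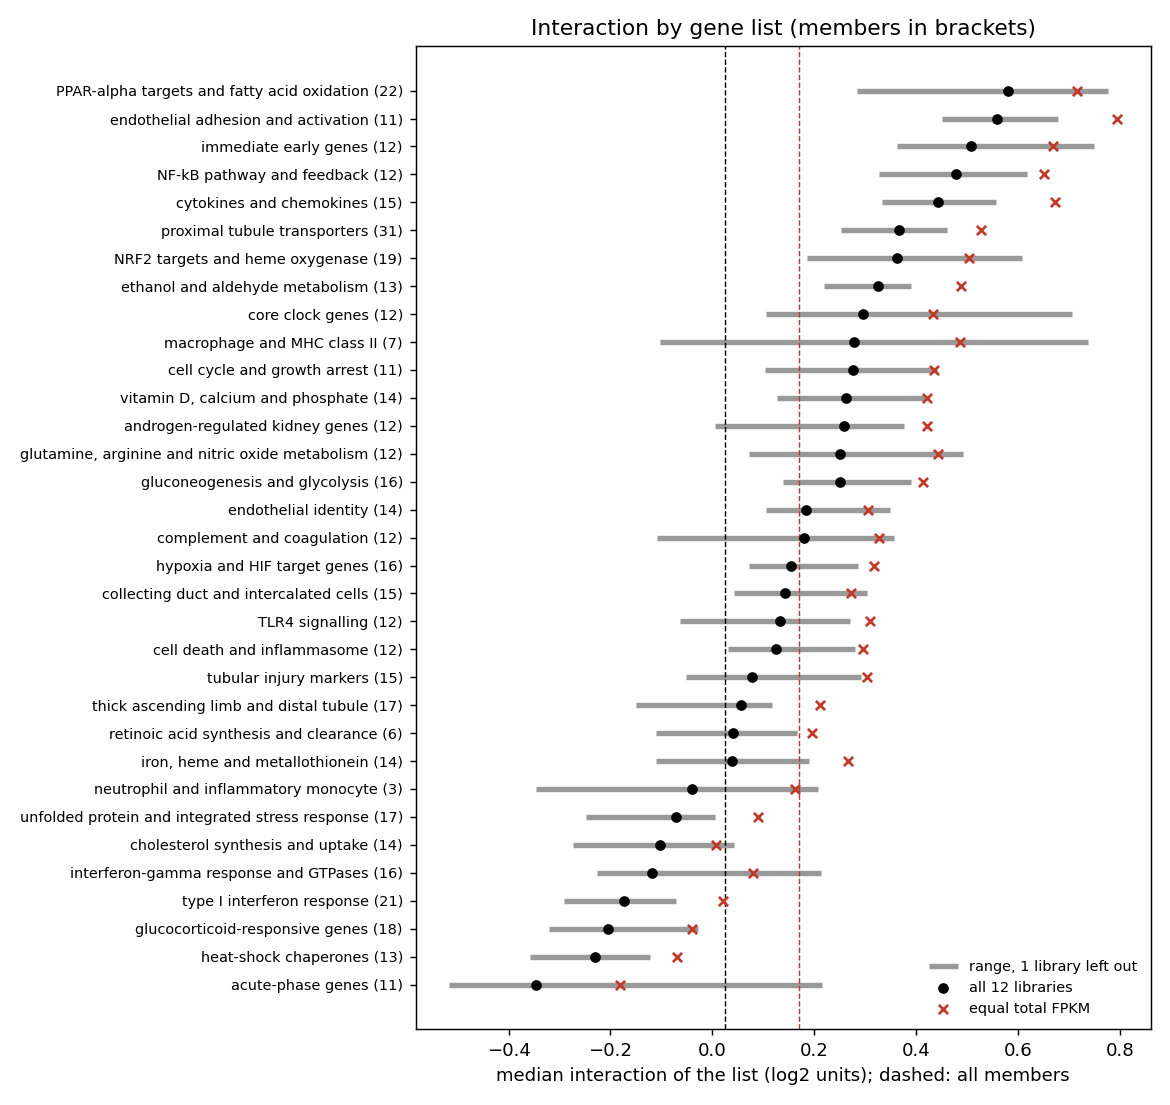
Median difference in LPS response (log2 units, x axis) of 33 gene lists, with the number of members in brackets; points use all 12 libraries, bars span the values with 1 library left out, crosses use libraries scaled to equal total FPKM, and dashed lines mark all members under each scaling. Among the points the list of PPAR-alpha targets is highest, at 0.58, and the acute-phase list is lowest, at -0.346, with a bar that crosses 0; among the crosses endothelial adhesion is highest, at 0.795.

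The heat-shock, glucocorticoid and unfolded protein lists had negative medians with the deposited scaling. Heat-shock chaperones had a median of -0.23 over 13 members (-0.358 to -0.123 with 1 library left out), with 9 negative differences, and 3 rose in pair-fed mice against 1 in ethanol-fed mice. Glucocorticoid-responsive genes had -0.205 over 18 members, of which 10 were negative, and -0.0279 without PF replicate 1. The unfolded protein list had -0.0708 over 17 members, with 9 rises in pair-fed mice and 5 in ethanol-fed mice, and its median was 0.0902 with equal totals and -0.248 to 0.00606 with 1 library left out. Rises made up 13.8% of all members in pair-fed mice and 13.0% in ethanol-fed mice. Of the lists not yet described, those for ethanol and aldehyde metabolism (13 members) and core clock genes (12 members) had the highest medians, 0.326 and 0.295, and the clock median ran from 0.105 to 0.707 with 1 library left out. Among members named by these and the other lists, Dnajb9, an endoplasmic reticulum chaperone, had -0.94 ± 0.35, Dnajb1, a heat-shock co-chaperone, had -0.65 ± 0.32, Cebpd, an inflammatory bZIP factor, had -0.98 ± 0.29, and Sqle, a cholesterol synthesis enzyme, had -0.97 ± 0.32. On the positive side, Ccn1, a matricellular early gene, had 1.48 ± 0.49, Plk2, a p53-induced kinase, had 0.91 ± 0.22, and Gadd45a, a growth arrest gene, had 0.75 ± 0.25. Aqp4, a basolateral water channel of the collecting duct, had -1.53 ± 0.90 and -0.805 without EtOH_LPS replicate 3. Its saline values did not overlap, at 0.856 to 4.86 FPKM in PF and 5.33 to 17.8 in EtOH. Aqp4 was also used as a marker of the inner medulla, and the part of tissue content in its values was not tested. The genes named for the lists and not described lay between -0.74 (Ddit4, a hypoxia target) and 0.95 (Atp6v1c2, a proton pump subunit). No member of any of the 33 lists passed the test of the difference.

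The set of classed members depended on which libraries were used. Leaving out 1 library at a time gave 50 to 156 classed members, of which 37 to 64 were among the 70, and 0 members passed the adjusted test each time. Leaving out PF_LPS replicate 2 kept the fewest, 37 of 70, and that library weighed most for 21 of the 70. Without it the differences of Icam1, Zfp503, Fhl2, Cenpj and Angpt1 were 0.905, -0.888, 0.832, -0.95 and -0.91, all short of the limit of 1. Etv5 fell short of it at 0.94 without EtOH_LPS replicate 1. Leaving out PF_LPS replicate 1 or EtOH_LPS replicate 1 gave the most, 156 and 154, with 762 and 703 members at an unadjusted p under 0.05 against 327. Of the 70, 11 (15.7%) turned sign or dropped below the full value divided by 1.5 without some library. The same held for 37 of the 119 members (31.1%) with a difference of at least 1, which include the 70. It held for 26 of the 49 of these that were not classed, and for 7302 of all 8183 members. Classing asked for a large difference and a called LPS response, which favour a small spread between libraries, so nothing is read from these shares. The 11 comprised 4 amplified members (Il34, Ctps, Irf8 and Pdk4), 4 blunted (Chil3, Fgb, Bcat1 and Saa3), 2 lost (Fpgs and Akr1c18) and 1 gained (Hist2h2bb). No opposite member was among them. Ctps, the enzyme of CTP synthesis, read 27.6, 118 and 57.6 FPKM in EtOH_LPS, and its difference of 1.02 ± 0.55 became 0.511 without replicate 2.

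**Figure D4:**
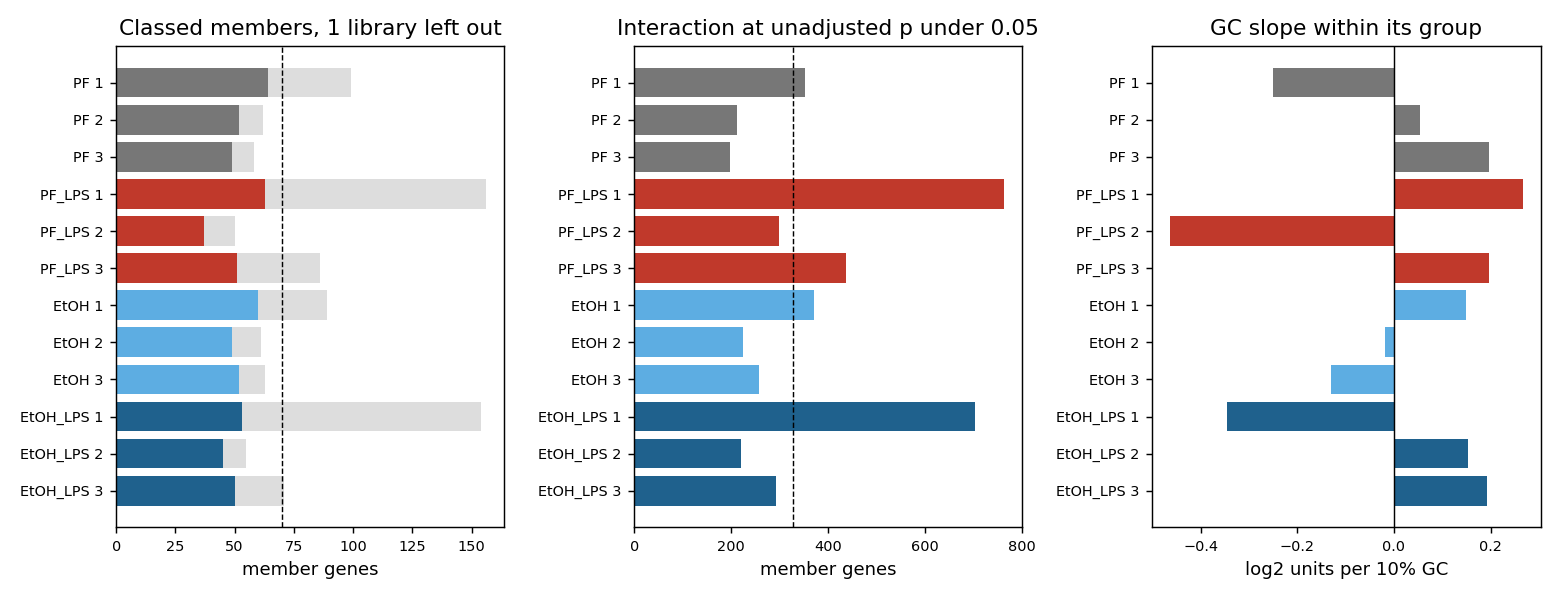
For each library: members classed when it is left out, with the coloured part shared with the 70 of the full set (left); members at an unadjusted p under 0.05 when it is left out (middle); and the slope of its deviation from its group mean on transcript GC in log2 units per 10% GC (right). Dashed lines mark 70 and 327 members, and PF_LPS replicate 2 and EtOH_LPS replicate 1 have the steepest slopes, -0.464 and -0.346.

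Across the 8183 members, the difference in response was higher at higher transcript GC content (Spearman rank correlation 0.416, a description across genes, which share libraries and are not independent). The median difference was -0.269 log2 units in the 819 members with the lowest GC and 0.235 in the 819 with the highest. Without PF_LPS replicate 2 the correlation was 0.0457 and these medians were -0.0936 and -0.0538, and without EtOH_LPS replicate 1 the correlation was 0.542. Without both it was 0.306. With the GC trend of each library removed, 58 members were classed, 45 of them among the 70 and 40 in the same class, and 0 passed the adjusted test. The part of GC content in the difference of a single gene was not tested.

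**Figure D5:**
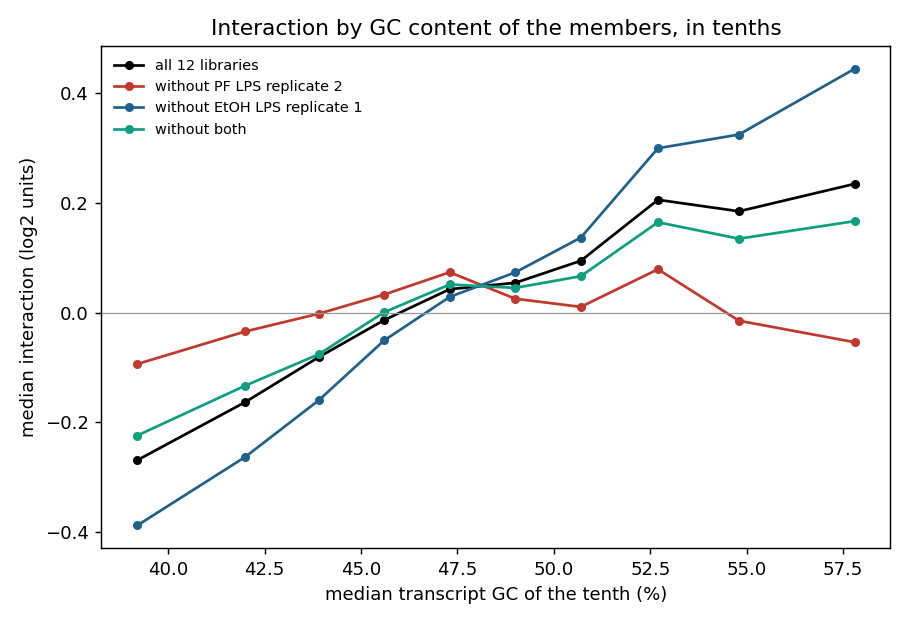
Median difference in LPS response (log2 units, y axis) in 10 equal groups of the 8183 members ordered by transcript GC content (x axis, median percent GC of each group), with all libraries, without PF_LPS replicate 2, without EtOH_LPS replicate 1 and without both. The line of all libraries rises from -0.269 to 0.235, and the line without PF_LPS replicate 2 stays between -0.0936 and 0.0792.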

How the data were processed

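RNA of kidney cortex was sequenced in 12 libraries, 4 groups of 3. The authors deposited 1 table of FPKM values for 47719 Ensembl genes, made on genome build mm10 with TopHat2 2.0.4, Cuffnorm, Cufflinks 2.2.1, Cuffdiff 2.1.1 and FastQC 0.10.1 among the tools named, per the submitters' processing notes. For the annotation release and the strand setting, both not given in the sources used here, no assumption was made, and antisense partners may share fragments. Fragment totals are not in the table, so no counting error is given, and FPKM are not counts, so no count model was run. Symbols, biotypes, coordinates and transcript GC came from GENCODE M21 (GRCm38), which matched 47305 genes and left 414 unmatched.

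Values were analysed as log2(FPKM + 1), which understates changes at low FPKM. The 14109 genes that reached 1 FPKM in 3 or more libraries were fitted in limma 3.58.1 (R 4.3.3) with 1 mean per group, an intensity trend and a robust prior, two-sided, with Benjamini-Hochberg adjustment over all of them and a threshold of 0.05. The fit was also run on simulated data with independent noise for each gene. Those data lacked the GC trends that genes share in these libraries, so the run does not measure the error rate of the test here. Errors beside log2 values are standard errors of that fit. A permutation test of 3 against 3 libraries cannot go below 0.1, so none is given. Tables and figures were made in Python 3.11.15. Same-numbered replicates did not deviate together (18 pairs, r from -0.435 to 0.536, 7 over 0.1), so the numbers were not used as pairs.

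Genes were named by rule: per class and LPS direction up to 4 members with the lowest unadjusted p, a panel of 11 member genes (Hspa1b, the 12th, is no member), the 2 members of each list with the largest absolute difference, and the 6 classed members that lose most without 1 library. Predicted genes (symbols in Gm or Rik) were left out of the first and last of these. The rest of each class is listed by name. Some genes named for the lists, including a gene of the type I interferon list, are not reported here. The members, the 33 lists and the classes were chosen with earlier results of these data known. The alternatives were other pseudocounts, scalings, filters, priors, array weights, a replicate block, and leaving out each library.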

Additional observations from a re-analysis of the deposited data

How the results depend on the processing

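Of the 24 alternatives, 2 were added after seeing the data: the GC trend of each library removed, and PF_LPS replicate 2 and EtOH_LPS replicate 1 left out together. No member passed the interaction test (limma) except with those 2 libraries left out, where 2 did and 534 had an unadjusted p under 0.05, ethanol-fed falls numbered 650, and amplified, gained and opposite members numbered 42, 31 and 0. With the GC trend removed, ethanol-fed falls numbered 559 and lost and gained members 8 and 6. Array quality weights gave 561 members at an unadjusted p under 0.05, 660 ethanol-fed falls, 34 amplified and 26 gained members. Equal total FPKM gave 209 at an unadjusted p under 0.05, 572 rises and 1324 falls in pair-fed mice, 658 rises and 788 falls in ethanol-fed mice, and 2 opposite members. Without a filter on low values there were 214 pair-fed and 194 ethanol-fed falls and 6 lost, 8 gained and 1 opposite members. A pseudocount of 0.1 gave 27 blunted members, and quantile normalization gave 721 pair-fed falls. The causes were not tested.

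Leaving out 1 library at a time gave 198 to 762 members at an unadjusted p under 0.05, 203 to 493 pair-fed falls, 197 to 479 ethanol-fed falls, 15 to 60 amplified, 10 to 39 blunted, 6 to 58 lost, 5 to 50 gained and 0 to 7 opposite members, and 50 to 156 classed members in all. The numbers do not pair the samples (4 of 12 libraries correlated best with their own number), and the fit with a replicate block called 0 members, with 285 at an unadjusted p under 0.05 and 71 classed members, 69 of them among the 70.

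Among the genes named or classed, signs turned for 5 whose differences were near 0. Fpr2 was 0.0197 with the GC trend removed, 0.171 with equal totals, 0.222 with a pseudocount of 0.1, and -0.346 to 0.265 without single libraries. Lcn2 was -0.107 with the GC trend removed, -0.0255 with quantile normalization and -0.41 to 0.595 without single libraries. Slc13a1 was 0.154 without the 2 libraries, 0.145 with the GC trend removed, 0.0571 with array weights, 0.0925 with equal totals and -0.201 to 0.0886 without single libraries. Spp1 was 0.013 with array weights, 0.0423 with equal totals and -0.247 to 0.0879 without single libraries. Tek was -0.0821 without the 2 libraries and -0.0464 to 0.162 without single libraries. With 3 libraries a group and a median standard error of 0.322, the median member reached an unadjusted p of 0.05 at a difference of 0.704 log2 units. The adjusted test asks for more, and none of the 119 members at 1 log2 unit or more passed it with all libraries.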
